A study of Mus musculus with 6 samples.

Results

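Genes that define dendritic cells were followed in stem cell-enriched bone marrow of mice with and without a pair of nuclear receptors. The genes were chosen by name, 9 in all, with earlier results of these data known. The 4 plasmacytoid genes were Siglech, Tcf4, Spib and Runx2, and the 5 classical genes were Itgax, Zbtb46, Batf3, Cd209a and Clec9a. A probe set, the group of short probes that measures one transcript on the array, was taken when the platform annotation gave it 1 of these symbols and no other. That yielded 15 of 45037 probe sets, for 7 of the 9 genes. Runx2 and Clec9a have no such probe set in the annotation, so their signals were not analysed here.

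RNA came from lineage-negative, Sca1-positive (Lin-Sca1+) cells, a fraction enriched for haematopoietic stem cells, purified by flow sorting from tibias and femurs. The wild-type (WT) group had the genotype WT, and the labels give no strain for it. The other group was Nr4a1 Nr4a3 double knockout (DKO), made by crossing single Nr4a1-/- and Nr4a3-/- lines, on a C57BL/6 and 129SvJ hybrid background. Whether the groups differ in strain background is therefore not known, and an effect of background cannot be told apart from that of the knockout. Mice of both groups were 2 to 3 weeks old. Each group had 3 arrays, and each array measured 1 pool of RNA from 10 to 20 mice, and the errors given therefore reflect differences among pools rather than among single mice. The values are MAS5 signals, a linear intensity per probe set, and the number of arrays limits the precision. RNA of mixed cells was measured, so fewer cells of a type and less RNA per cell cannot be told apart.

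Dendritic cells sense pathogens and present antigen to T cells, and they are renewed from bone marrow progenitors under the cytokine receptor Flt3. Plasmacytoid dendritic cells secrete type I interferon and depend on the E protein Tcf4, a basic helix-loop-helix factor that binds E-box sequences. Classical dendritic cells carry CD11c, the product of Itgax, and express the zinc finger factor Zbtb46. Those that cross-present antigen to cytotoxic T cells need Batf3, a partner of JUN proteins at AP-1 sites. Id2, an inhibitor of E proteins, favours the classical over the plasmacytoid fate.

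The promoters of Siglech, Spib and Itgax are shown because these 3 genes had the widest differences between the groups when a gene is represented by its brightest probe set. Each is the stretch of 250 bases before the RefSeq transcription start (GRCm38.p6), at chr7:55767934-55768183 on the plus strand for Siglech, chr7:44532072-44532321 on the minus strand for Spib and chr7:128129300-128129549 on the plus strand for Itgax. Capitals mark the E-box letters CANNTG and the AP-1 letters TGANTCA, searched on both strands, and the motifs did not overlap one another in these promoters.
Siglech: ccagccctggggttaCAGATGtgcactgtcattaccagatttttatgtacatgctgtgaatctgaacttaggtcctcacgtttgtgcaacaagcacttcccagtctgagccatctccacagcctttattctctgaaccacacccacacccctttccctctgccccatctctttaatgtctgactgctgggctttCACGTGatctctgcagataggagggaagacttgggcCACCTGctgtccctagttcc
Spib: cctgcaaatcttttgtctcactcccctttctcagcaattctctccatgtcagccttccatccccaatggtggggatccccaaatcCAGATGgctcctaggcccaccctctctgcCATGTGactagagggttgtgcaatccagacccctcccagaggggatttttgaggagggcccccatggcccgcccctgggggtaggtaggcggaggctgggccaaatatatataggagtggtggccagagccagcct
Itgax: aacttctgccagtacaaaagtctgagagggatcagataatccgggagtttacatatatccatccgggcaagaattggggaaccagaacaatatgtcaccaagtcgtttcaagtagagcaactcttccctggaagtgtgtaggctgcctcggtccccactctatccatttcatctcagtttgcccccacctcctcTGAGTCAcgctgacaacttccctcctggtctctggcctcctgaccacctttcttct
Siglech held 3 E-box matches and Spib 2, and neither held an AP-1 match. Itgax held 1 AP-1 match and no E-box match. Among 32851 mouse promoters of the same length, 66.2% held an E-box match and 6.75% an AP-1 match. Promoters of 7 members were searched, those of Siglech, Spib, Runx2, Itgax, Zbtb46, Batf3 and Clec9a. Those of Tcf4 and Cd209a were not searched. An E-box match was present in 6 of the 7, all but Itgax, and an AP-1 match in 2, Itgax and Zbtb46. The letters AAAGGTCA, the NBRE element that NR4A receptors bind as monomers, matched in 0 of the 7 promoters and in 1.34% of all. These matches describe letters in a window and not binding.

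The targeted gene Nr4a1 had signals of 816.3 to 1269.4 on the WT arrays and 8.0 to 33.8 on the DKO arrays, so its loss matched the labels. The 3 Nr4a3 probe sets were dim, and their means over all 6 arrays were below the limit on low values used here (a signal of about 53.2). Signals of 1421079_at were 40.4, 61.8 and 51.5 in WT and 20.9, 4.0 and 0.6 in DKO, without overlap. The groups overlapped in 1438796_at (128.7, 145.4 and 22.6 in WT, 25.9, 6.9 and 24.6 in DKO). They also overlapped in 1421080_at (63.7, 44.3 and 50.8 in WT, 60.9, 59.4 and 21.2 in DKO). Where the deletions lie relative to the Nr4a1 and Nr4a3 probes was not known here. Kit, the stem cell factor receptor, had 2419 to 2963 in WT and 1679 to 1968 in DKO, while Ly6a, which encodes Sca1, has no probe set of its symbol alone in the annotation. WT replicate 2 stood apart: within WT it had the highest summed signal of the B lineage, neutrophil, monocyte and macrophage, and erythroid marker lists. Of the other gene lists summed here, it was the highest within WT in all but the regulator and stem cell lists. Its B lineage sum was 11244, against 3369 as the lowest WT sum and 1923 to 2375 in DKO. Some of the results that rest on this pool are given with and without it.

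No member passed the test between DKO and WT. Signals were compared as log2(signal + 16) with limma across 27022 probe sets, the 60% with the higher means, and p-values were adjusted by the Benjamini-Hochberg method with a threshold of 0.05. Of the 15 member probe sets 11, from 5 genes, were tested, and 0 passed, against 1.37% of all tested probe sets. The smallest adjusted p among them was 0.157, for Itgax. At an unadjusted p under 0.05 there were 3 of the 11, one each of Siglech, Tcf4 and Itgax, against 14.2% of all. The groups did not overlap in 2 of the 11, both higher in DKO, while 8.76% of all tested probe sets were higher without overlap and 19.8% did not overlap in either direction. Over all 15, 8 were higher and 7 lower in DKO. With 3 arrays a group, the same test on simulated data recovered 6% of probe sets changed by log2 1 and 48% of those changed by log2 2, so smaller differences were mostly not detectable.

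**Figure D1:**
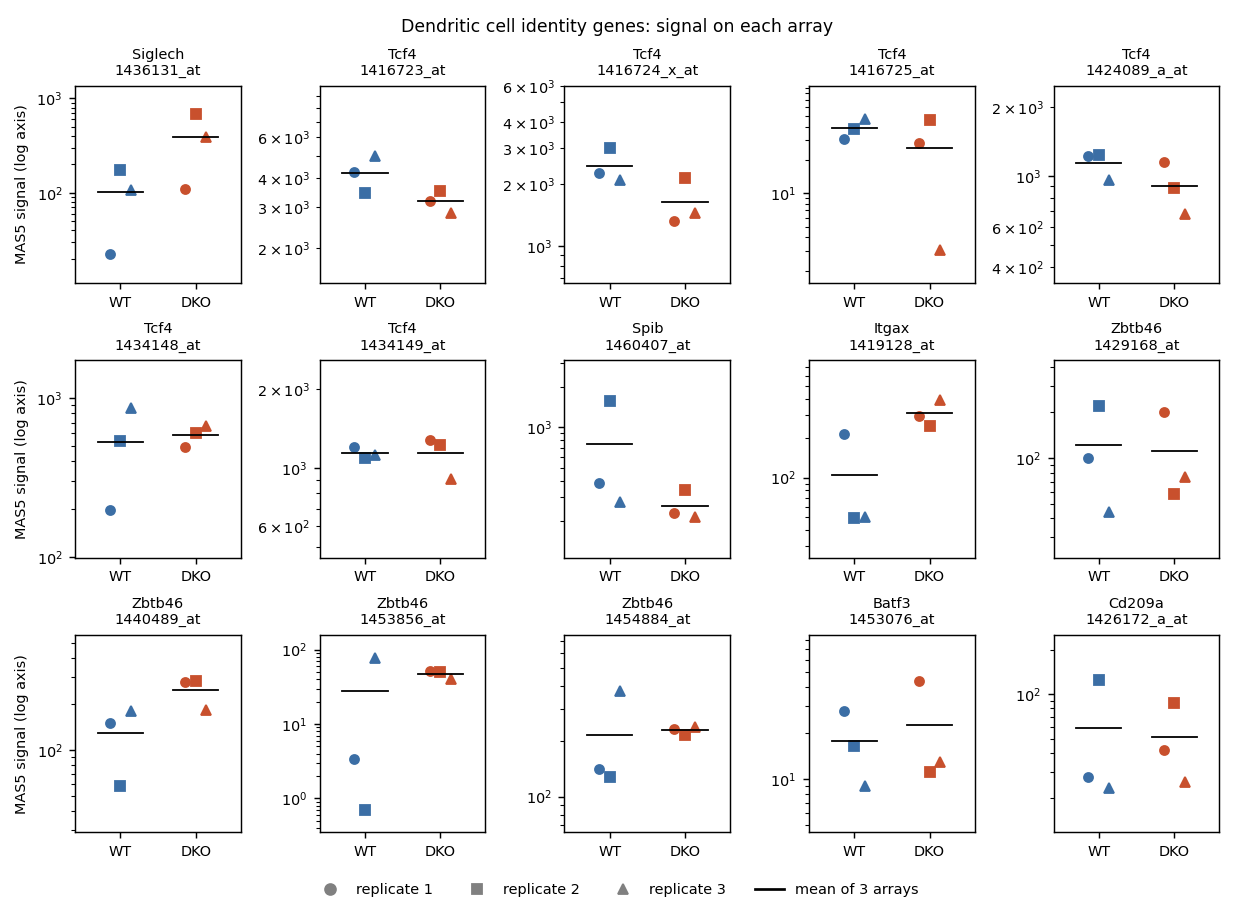
MAS5 signal (log axis) of all 15 member probe sets on each array, WT in blue and DKO in red, with a symbol for each replicate and a line at the mean of 3 arrays. In Itgax and in the Zbtb46 probe set 1440489_at every DKO point lies above every WT point, and in the other 13 probe sets the groups overlap.

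Siglech, a sialic acid-binding lectin that marks mouse plasmacytoid dendritic cells, had the widest difference of the members, but its pools varied as widely. Its signal was 22.3, 174.9 and 106.6 on WT arrays 1 to 3 and 109.5, 680.2 and 391.4 on DKO arrays 1 to 3. DKO replicates 2 and 3 were above every WT array, while DKO replicate 1 lay within the WT range. The group means were 101 ± 76.4 (SD, n = 3) and 394 ± 285 (n = 3). Subtracting WT from DKO on the log2 scale gave 1.77 ± 0.69 (SE; 95% interval 0.26 to 3.28), with a limma adjusted p of 0.265. That difference lay between 1.10 without WT replicate 1 and 2.47 without DKO replicate 1, was 2.26 without WT replicate 2, and its adjusted p in these fits was 0.169 to 0.575.

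Tcf4, the E protein on which plasmacytoid cells depend, is also expressed in progenitors and B lineage cells. Its 6 probe sets gave small differences, 5 of them lower in DKO. The brightest, 1416723_at, had 4243, 3443 and 4989 in WT and 3188, 3510 and 2835 in DKO, so 1 DKO pool, replicate 2, exceeded 1 WT pool. The log2 difference there was -0.40 ± 0.19 (SE; 95% interval -0.81 to 0.01; limma adjusted p = 0.367). The probe set 1416724_x_at, whose suffix marks probes that can bind other transcripts, had 2257, 3014 and 2092 in WT and 1322, 2152 and 1439 in DKO. Only DKO replicate 2 reached the WT range, and the log2 difference was -0.59 ± 0.24 (95% interval -1.12 to -0.07; limma adjusted p = 0.288).

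The other Tcf4 probe sets did not share one direction. Signals of 1424089_a_at were 1219, 1239 and 963 in WT and 1154, 885 and 683 in DKO, a log2 difference of -0.35 ± 0.26. In 1434149_at they were 1200, 1095 and 1120 in WT and 1283, 1228 and 911 in DKO, at -0.01 ± 0.23, a sign that turned with median centring and quantile normalization. Those of 1434148_at were 198.8, 533.5 and 860.9 in WT and 488.9, 603.6 and 662.5 in DKO, at 0.35 ± 0.45, where the WT pools alone spanned the DKO range. The dim 1416725_at, below the limit on low values, had 30.7, 38.0 and 46.8 in WT and 28.2, 45.6 and 3.1 in DKO, at -0.54 ± 0.51 in the fit of all probe sets. In each of these 4 the groups overlapped.

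Spib, an ETS factor of plasmacytoid dendritic cells and B cells, was lower in DKO on average through a single WT pool. Signals were 385.8, 1574.7 and 278.2 in WT and 229.8, 339.0 and 213.7 in DKO. WT replicate 2 stood far above the other 5 arrays, which lay between 213.7 and 385.8 and overlapped between the groups. The log2 difference was -1.08 ± 0.54 (95% interval -2.25 to 0.10; limma adjusted p = 0.393), and it was -0.34 (adjusted p = 0.753) without WT replicate 2. The same pool had the highest B lineage sum, with 10 of 12 listed genes tested. B lineage sums of the WT arrays were 3369 to 11244 and those of the DKO arrays 1923 to 2375, and the part of B lineage RNA in the Spib signal was not tested.

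Itgax, which encodes the integrin CD11c of classical dendritic cells and is also found on some macrophages and natural killer (NK) cells, was the one member gene whose brightest probe set separated the groups. Signals were 217.2, 48.9 and 50.4 in WT and 298.5, 246.9 and 393.6 in DKO. WT replicate 1 came near the lowest DKO array, and WT replicates 2 and 3 lay much lower. The means were 105 ± 96.7 (SD, n = 3) in WT and 313 ± 74.4 (n = 3) in DKO. The log2 difference was 1.69 ± 0.52 (95% interval 0.55 to 2.83), which did not pass (limma adjusted p = 0.157). It lay between 1.38 without WT replicate 2 and 2.30 without WT replicate 1, where adjusted p was 0.0653. Summed signals of the T and NK cell list, 11 of 12 genes tested, were 820 to 1638 in WT and 10216 to 15069 in DKO, and their part in the Itgax signal was not tested.

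Zbtb46, a transcription factor of committed classical dendritic cells that endothelial cells express too, had 4 probe sets that disagreed. In 1440489_at signals were 148.7, 57.8 and 180.6 in WT and 275.5, 280.3 and 181.1 in DKO, so the groups were apart, but WT replicate 3 and DKO replicate 3 were nearly equal. Its log2 difference was 0.94 ± 0.46 (95% interval -0.05 to 1.94; limma adjusted p = 0.377), and 0.52 without WT replicate 2. The brightest probe set, 1454884_at, had 141.6, 128.1 and 375.5 in WT and 232.8, 215.1 and 239.7 in DKO. There WT replicate 3 was the highest of the 6 arrays and the other WT arrays the lowest. The log2 difference was 0.24 ± 0.44 (95% interval -0.72 to 1.20; limma adjusted p = 0.861).

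In 1429168_at the Zbtb46 signals were 100.5, 219.7 and 44.2 in WT and 200.2, 57.9 and 74.9 in DKO. High and low pools occurred in both groups, and the log2 difference of -0.06 ± 0.59 turned positive with quantile normalization and median centring. The dim 1453856_at had 3.4, 0.7 and 78.1 in WT and 51.8, 50.2 and 39.8 in DKO, at 1.01 ± 0.63 in the fit of all probe sets (adjusted p = 0.615). The WT pools there were either near the floor or above every DKO pool.

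Batf3 and Cd209a were below the limit on low values and were read from the fit of all 45037 probe sets, in which 0.462% passed. Batf3, the factor of cross-presenting dendritic cells, had signals of 27.8, 16.4 and 9.0 in WT and 43.3, 11.2 and 13.0 in DKO. DKO replicate 1 was the highest array and the others overlapped, with a log2 difference of 0.13 ± 0.43 (95% interval -0.81 to 1.08; limma adjusted p = 0.952). Cd209a, a C-type lectin related to human DC-SIGN, had 27.5, 125.0 and 23.3 in WT and 41.7, 87.1 and 25.3 in DKO. Replicate 2 was the highest array in both groups, and the log2 difference was 0.01 ± 0.63 (95% interval -1.37 to 1.39; limma adjusted p = 0.998). No difference between the groups was detected at these low signals, which does not show that these transcripts were absent.

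**Figure D2:**
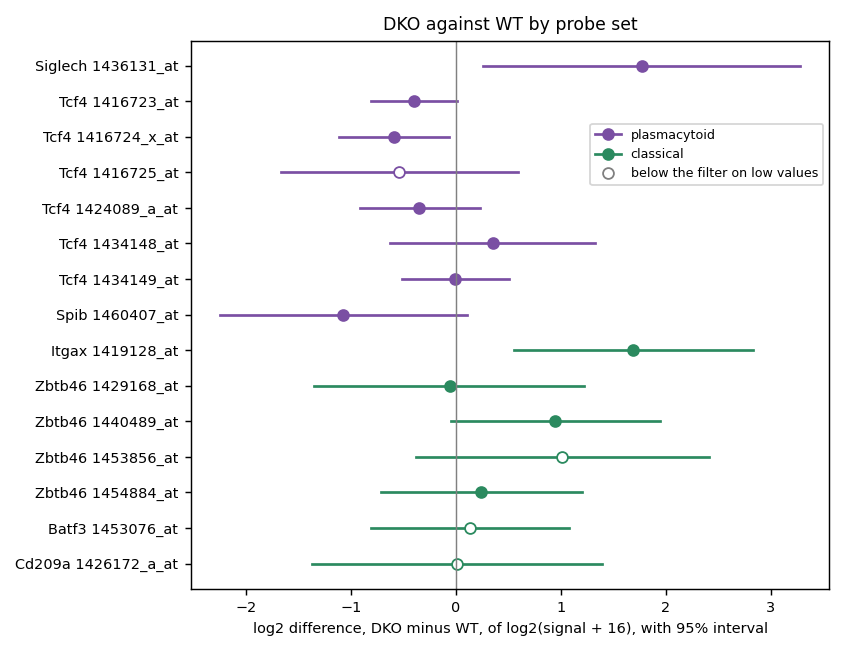
Log2 difference, DKO minus WT, of log2(signal + 16) for each member probe set, with its unadjusted 95% interval, plasmacytoid genes in purple and classical genes in green; open points were below the limit on low values. The intervals of Siglech, of Tcf4 1416724_x_at and of Itgax leave out 0, and none of these passed after adjustment over all probe sets.

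The contrast of plasmacytoid with classical genes gave no shared direction within the plasmacytoid genes. By the brightest probe set, the 3 measured plasmacytoid genes had log2 differences of 1.77 (Siglech), -0.40 (Tcf4) and -1.08 (Spib), with a median of -0.40. The 4 measured classical genes had 1.69 (Itgax), 0.24 (Zbtb46), 0.13 (Batf3) and 0.01 (Cd209a), with a median of 0.19. The median over all 18193 genes in that fit was 0.00. Of the 8 plasmacytoid probe sets 2 were higher and 6 lower, and of the 7 classical probe sets 6 were higher and 1 lower. The difference between the classes was not tested, since genes are not replicates. Of the 8 plasmacytoid probe sets 6 belong to Tcf4, and of the 7 classical ones 4 belong to Zbtb46. The higher classical ones include Batf3 and Cd209a, which were below the limit on low values. With an array left out these ranged from -0.23 to 0.34 and from -0.35 to 0.60.

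By array, the mean level of each class was taken after centring every gene on its average across arrays, on the log2 scale. For the plasmacytoid genes it was -0.66, 0.68 and -0.17 in WT and -0.46, 0.59 and 0.02 in DKO. Replicate 2 was the highest and replicate 1 the lowest in both groups, which overlapped widely. For the classical genes it was -0.08, -0.26 and -0.44 in WT and 0.40, 0.24 and 0.13 in DKO, so the groups did not overlap. Without Itgax, a value added after the data were seen, the classical level was -0.23, 0.15 and -0.11 in WT and 0.27, 0.14 and -0.22 in DKO, and the groups overlapped. Without WT replicate 2 the classical median was 0.36 in place of 0.19, and the plasmacytoid median was -0.34.

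**Figure D3:**
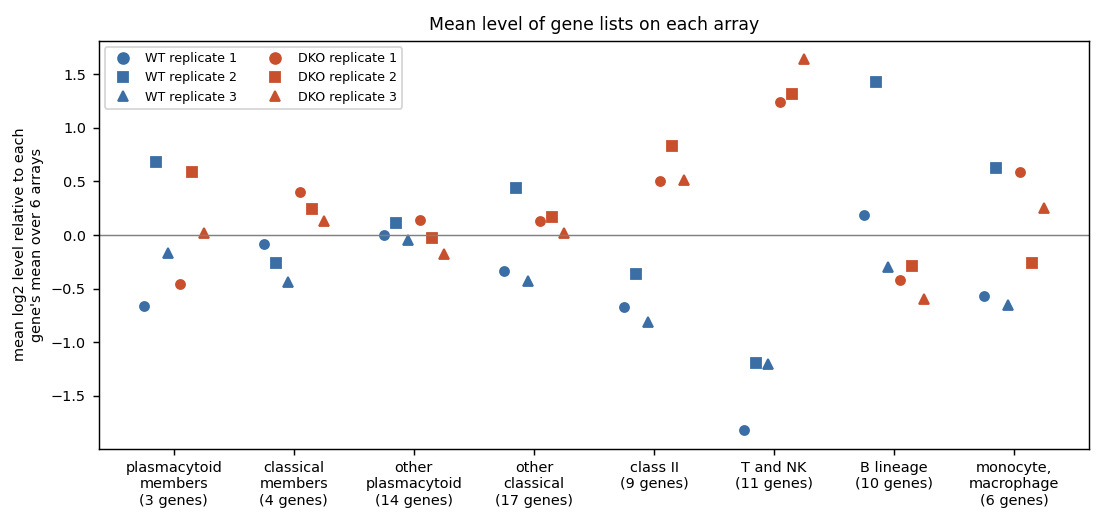
Mean log2 level of each gene list on each array, centred on the average of every gene across arrays (0), WT in blue and DKO in red. The plasmacytoid members overlap between the groups (-0.66 to 0.68 in WT, -0.46 to 0.59 in DKO), the classical members do not (-0.44 to -0.08 against 0.13 to 0.40) but overlap once Itgax is left out (-0.23 to 0.15 against -0.22 to 0.27, not drawn), and WT replicate 2 is highest for the B lineage at 1.43.

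The genes whose pattern over the 6 arrays was most like that of each tested member were found by Pearson's r of log2(signal + 16) among 11528 other genes. They were Dnajc5 and Pmepa1 for Siglech (r = 0.992 and 0.986), and Ctns and Prim1 for Itgax (0.992 and 0.988). For Spib they were Ppp1r18 and Lig4 (0.996 and 0.994), for Tcf4 Slain1 and Sfxn3 (0.997 and 0.993), and for Zbtb46 Itgb5 and Malsu1 (0.995 and 0.978). None of these 10 is in the dendritic cell lists used here, and none passed the test between the groups. With so few arrays high values were common: between 82 genes, for Zbtb46, and 191, for Tcf4, had r over 0.9.

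Other dendritic cell genes were listed by known role, with earlier results of these data known. They also gave 0 calls with limma, and 1 plasmacytoid and 3 classical genes had an unadjusted p under 0.05. Of 16 further plasmacytoid genes 14 were tested, 8 were higher and 6 lower with a median log2 difference of 0.11, against -0.01 over all 11529 tested genes, of which 1.71% passed. The smallest p were those of Bst2, a surface protein of plasmacytoid cells that interferon induces, and Rpgrip1. Bst2 had 202.5, 172.9 and 276.6 in WT and 406.2, 463.5 and 421.9 in DKO, without overlap (0.96 ± 0.33, limma adjusted p = 0.211). Rpgrip1 was at 0.36 ± 0.17 (limma adjusted p = 0.353), but at -0.43 as the mean over its probe sets. Of 23 further classical genes 17 were tested, 10 higher and 7 lower with a median of 0.03. The mean centred level of these 17 was -0.34, 0.44 and -0.43 in WT and 0.13, 0.17 and 0.02 in DKO. Only WT replicate 2 was not below the DKO arrays. Naaa, not called with all arrays, passed in 1 of 6 fits with an array left out. The lectin gene Clec10a had 240.0, 198.1 and 120.2 in WT and 558.5, 290.4 and 557.9 in DKO (1.25 ± 0.40, limma adjusted p = 0.166). Wdfy4, which cross-presentation needs, was at -0.45 ± 0.19 (limma adjusted p = 0.323).

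Among 18 tested of 20 listed regulators of dendritic cell development 3 rose and 1 fell in DKO, with a median of 0.12. Id2, the inhibitor of E proteins such as Tcf4, rose from 198.4, 525.8 and 234.7 in WT to 1330.8, 1798.8 and 2338.9 in DKO (2.54 ± 0.37, limma adjusted p = 0.00614). Id2 also acts in NK and other innate lymphoid cells. The summed signal of the T and NK cell list, which holds T cell receptor genes too, was higher on every DKO array, and its part in the Id2 signal was not tested. Irf8, a factor that both dendritic classes and monocytes use, rose from 293.0, 945.2 and 507.7 to 1864.6, 2902.0 and 2093.7 (2.07 ± 0.37, limma adjusted p = 0.0194). Csf2rb, a signalling chain that the receptors for GM-CSF and related cytokines have in common, rose from 2132, 2495 and 1857 to 5507, 4303 and 4720 (1.16 ± 0.19, limma adjusted p = 0.0117).

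Flt3, the receptor that drives dendritic cell development, fell from 1798, 1347 and 2067 to 555, 578 and 606 (-1.54 ± 0.25, limma adjusted p = 0.0108). On the same arrays 6 of 8 tested genes of the stem cell list fell, and the part of such cells in the Flt3 signal was not tested. The calls held in 5 of 6 fits with an array left out for Id2 (lost without DKO replicate 3), in 3 for Flt3 and Csf2rb (lost for each without WT replicate 1, DKO replicate 1 or DKO replicate 3) and in 2 for Irf8, without WT replicate 2 or WT replicate 3. Without an intensity trend in the variance none of the 4 passed (adjusted p = 0.0609 to 0.130). Spi1, the ETS factor related to Spib, was at 0.11 ± 0.37.

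Antigen presentation genes of class II, which dendritic cells share with B cells and macrophages, were mostly higher. Of 9 tested 4 rose and 1 fell, with a median of 0.86. H2-Aa rose by log2 2.96 ± 0.39 (limma adjusted p = 0.00340), H2-Ab1 by 2.57 ± 0.26 (adjusted p = 8.73e-04), H2-Eb1 by 2.25 ± 0.37 (adjusted p = 0.0120) and Cd74 by 2.67 ± 0.56 (adjusted p = 0.0427). H2-Ob, a modulator of class II peptide loading in B cells, fell by log2 1.26 (-1.26 ± 0.26, limma adjusted p = 0.0420), a call that held in 0 of 6 fits with an array left out and was lost with median centring too (adjusted p = 0.0946). Cd74 held in 1 of 6, that without WT replicate 2, and H2-Eb1 in 3, lost without any one DKO array. Without an intensity trend H2-Ab1 alone of the 5 passed, and H2-Aa had an adjusted p of 0.0555. Ciita, which switches on class II genes, was at 0.09 ± 0.46, with a signal of 31.7 to 69.3 in WT and 49.9 to 63.8 in DKO.

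**Figure D4:**
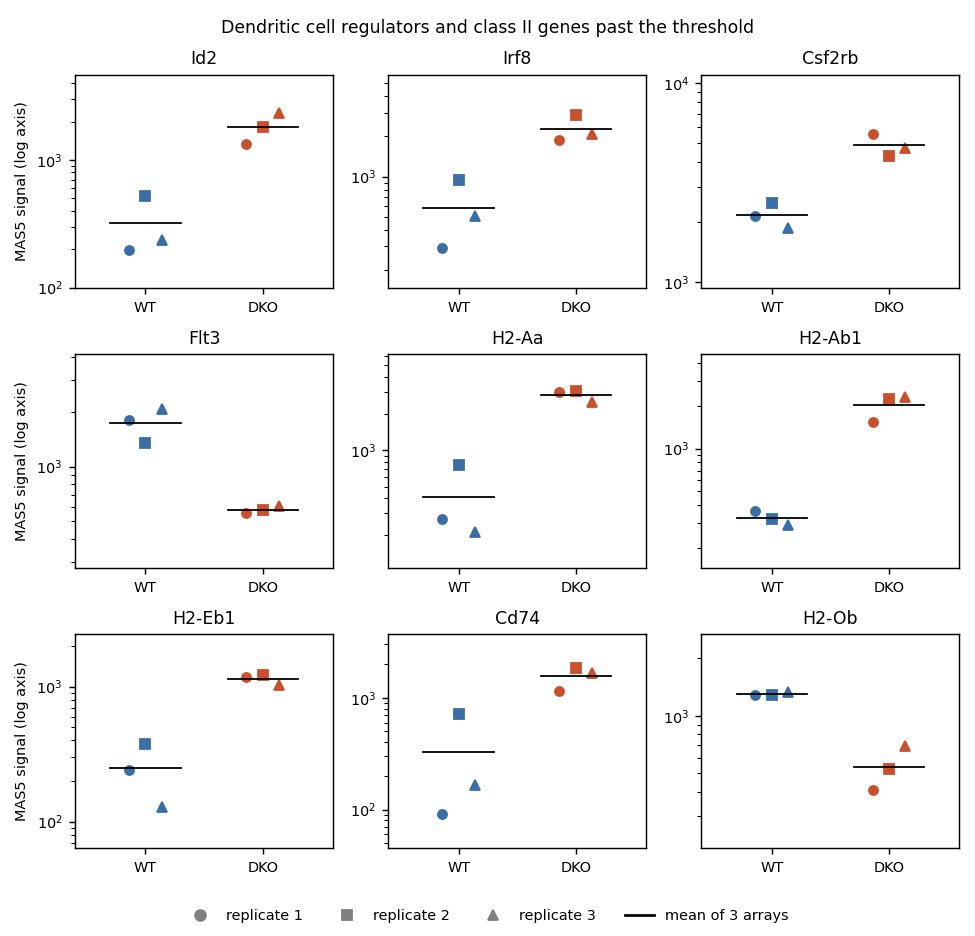
MAS5 signal (log axis) on each array of dendritic cell regulators and class II genes past the threshold, WT in blue and DKO in red, with a line at the mean of 3 arrays. Id2, Irf8, Csf2rb, H2-Aa, H2-Ab1, H2-Eb1 and Cd74 lie higher and Flt3 and H2-Ob lower in DKO, without overlap between the groups.

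Family members and partners of the 9 genes were listed as well, and of 19 tested out of 29 listed 3 rose and 0 fell, with a median of 0.11. Siglecf, an eosinophil lectin of the Siglech family, rose from 404 ± 103 (SD, n = 3) to 4169 ± 468 (3.34 ± 0.25, limma adjusted p = 6.87e-05). Itgb2, the beta chain that pairs with Itgax, rose from 2747 ± 1126 to 5894 ± 640 (1.16 ± 0.25, limma adjusted p = 0.0446), a call held in 1 of 6 fits with an array left out, that without WT replicate 2, and lost with median centring (adjusted p = 0.0608). The third was Id2. The other E protein genes Tcf3 and Tcf12 were at -0.40 and -0.10, the RUNX genes Runx1 and Runx3 at 0.11 and 0.25, and Batf at -0.51, and none passed. Of the other Cd209 family genes only Cd209d was above the limit on low values, at 0.88 ± 0.50.

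Markers of other cell types moved between the groups beside these genes. Their lists were also chosen with earlier results of these data known, so the counts describe these arrays and are not independent support. Of 6 tested monocyte and macrophage genes Ccr2 rose (2.32 ± 0.26, limma adjusted p = 0.00152), and 3 were higher and 3 lower. Their summed signals were 9769, 25223 and 7896 on WT arrays 1 to 3 and 10101 to 13607 in DKO. Only WT replicate 2 was not below the DKO arrays. T and NK genes rose in 7 of 11, basophil and mast cell genes in 5 of 5 and plasma cell genes in 2 of 5, and each of these sums was higher on every DKO array. B lineage genes were lower in 10 of 10, of which 1, Cd72, fell (-2.32 ± 0.38, limma adjusted p = 0.0117), a call lost without WT replicate 1 or DKO replicate 3. Without WT replicate 2, a count added after the data were seen, 8 of these genes were tested, 5 lower and 3 higher, and the median was -0.24. Bone stroma, erythroid and neutrophil lists had 0 calls and sums that overlapped, with an unadjusted p under 0.05 for 0, 2 and 0 genes. The erythroid genes Slc4a1 and Alas2 each passed, lower in DKO, in 1 of 6 fits with an array left out. The stem cell list fell in 6 of 8. The part of these cell types in the member signals was not tested.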

How the data were processed

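Per the submitters' processing notes the deposited values are MAS5 signals (no version given), a linear intensity per probe set. In the deposited table the 2% trimmed mean of each of the 6 arrays was 500, a scaling that was kept. After removal of 64 controls from 45101 probe sets, 34945 of 45037 had 1 symbol in the platform annotation, 932 several and 9160 none. By gene identifier 34741 matched RefSeq genes (GRCm38.p6), with 0 symbols changed.

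On the log2(signal + 16) scale, which understates fold changes of dim genes, the dimmest 40% of probe sets by mean were dropped. For the other 27022, limma 3.58.1 (R 4.3.3; eBayes, intensity trend) compared DKO with WT, two-sided and unblocked. "Rose" and "fell" mark an adjusted p under 0.05. Members below the filter were read from a fit of all probe sets. A gene is represented by its brightest probe set. Named are all members, per list up to 4 called genes or else the 2 with the smallest p (T and NK, basophil and mast, plasma, stem, stroma, erythroid and neutrophil lists are given as counts), and the 2 genes most correlated with each tested member. Others were named after their values were seen. The members and lists were chosen with earlier results of these data known.

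Settings varied were the pseudocount (1, 64), the filter (none, 60%), quantile normalization, median centring, the intensity trend, array weights, the replicate block, leaving out arrays, a threshold of 0.10 and averaging of probe sets. On simulated data of 27022 probe sets, with 50 changed at each size, the fit recovered 6%, 48%, 76% and 86% at log2 changes of 1, 2, 3 and 4, with 5 false calls. Python 3.11.15 with matplotlib 3.10.9 drew the figures.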

Additional observations from a re-analysis of the deposited data

How the results depend on the processing

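The count of member probe sets past the threshold was 0 in the main fit and under 16 alternatives, which include the replicate block and each array left out in turn. Across tested probe sets the median log2 difference was -0.05 with the deposited scaling and 0.06 when arrays were centred on their medians; that shift of 0.11 applies to each member too. The sign of small differences turned: Tcf4 1434149_at, at -0.01, was 0.02 with quantile normalization, 0.10 with median centring and 0.01 with array quality weights; Zbtb46 1429168_at, at -0.06, was 0.06, 0.05 and 0.18; Cd209a, at 0.01, was -0.03 with a pseudocount of 64. Rpgrip1 was -0.43 as the mean over its probe sets. Among member probe sets, and for Camp among the genes named by rule, ranges with an array left out that crossed 0 were -0.22 to 0.80 (Tcf4 1434148_at), -0.10 to 0.14 (Tcf4 1434149_at), -0.55 to 0.44 (Zbtb46 1429168_at), -0.02 to 0.70 (Zbtb46 1454884_at), -0.23 to 0.34 (Batf3), -0.35 to 0.60 (Cd209a) and -0.98 to 0.30 (the neutrophil gene Camp). Other listed genes crossed 0 as well, such as Spi1 (-0.20 to 0.38). The cause was not tested. Leaving out arrays gave classical medians of 0.15 to 0.36; averaging probe sets gave 0.33 (from 0.19) and a plasmacytoid median of -0.26 (from -0.40), and a pseudocount of 64 a classical median of 0.12. In the other lists together 33 genes passed, 13 without an intensity trend and 18 to 33 with an array left out, with the lowest counts without DKO replicate 3 (18), WT replicate 1 (19) and DKO replicate 1 (20).

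The labels give same-numbered WT and DKO arrays only a shared replicate number, and whether they share more is not known. Their deviations from the group means correlated at 0.142, -0.0306 and 0.0531. Of the WT arrays 1 of 3, and of the DKO arrays 2 of 3, correlated best with their own number. With the replicate block 0 member probe sets passed, 30 genes of the other lists, and 312 of all probe sets against 370 without it; the adjusted p of Siglech was 0.0721. All probe sets past the threshold numbered 88 without an intensity trend, 208 with no filter, 563 with array quality weights and 104 to 469 with an array left out. Signals near the limit on low values, as in Batf3 and Cd209a, limit what could be seen.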
